A study of Mus musculus with 25 samples.

Results

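The genes described here are 9 apolipoproteins and the microsomal triglyceride transfer protein, the proteins that build and coat the lipoproteins leaving the liver. The 10 members were chosen by symbol (Apoa1, Apoa2, Apoa4, Apoa5, Apob, Apoc1, Apoc2, Apoc3, Apoe and Mttp) and joined to their Ensembl identifiers among the 41388 genes listed for each library. All 10 passed the filter on low counts, which left 14065 genes for the tests.

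Liver RNA was sequenced in 25 male C57B/6J mice aged 20 weeks, 1 library per mouse, to learn what hepatocyte NAMPT does in mice on Western diet and whether SIRT1 is needed for it. All groups received an AAV8 vector by tail vein, either empty (EV) or carrying NAMPT (the enzyme that recycles nicotinamide toward NAD) behind the thyroxine binding globulin promoter, which is active in hepatocytes. All mice carried loxP-flanked SIRT1 alleles. WT mice were littermates without Cre, and LKO mice carried Albumin-Cre, which is active in hepatocytes, to remove SIRT1 there. On chow there were 3 WT EV livers. On Western diet (WD), fed for up to 12 weeks, there were 6 livers each of WT EV and WT NAMPT and 5 each of LKO EV and LKO NAMPT.

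Total counts ran from 20166175 to 32937326 per library, and the 10 genes together took between 4.41% and 5.92% of them. The fewest counts for any member in any library were 713, for Apoa4 in a chow liver. Sirt1 over the whole gene stood at 8.57 ± 1.34 CPM (SD, n = 5) in LKO EV and at 8.86 ± 0.57 CPM (SD, n = 6) in WT EV. With the NAMPT vector it stood at 9.82 ± 1.36 CPM (SD, n = 5) in LKO and at 8.58 ± 0.62 CPM (SD, n = 6) in WT, so it was not lower in the libraries labelled LKO NAMPT. A count over the whole gene need not show the loss of a loxP-flanked part, so the genotypes rest on the labels. Nampt stood at 59.5 ± 10.6 CPM (SD, n = 6) in WT NAMPT against 47.4 ± 6.46 CPM (SD, n = 6) in WT EV, and at 79.9 ± 28.4 CPM (SD, n = 5) in LKO NAMPT against 56.1 ± 12.0 CPM (SD, n = 5) in LKO EV. The means were higher with the vector in both genotypes, but the libraries overlapped, and whether reads of the insert count for mouse Nampt is not given in the sources used here. Hepatocyte markers (6 of 6 found, none at 0) summed to between 41853 and 72833 CPM in every library. In bulk liver, fewer cells of a type and less RNA per cell cannot be told apart.

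Very low density lipoprotein (VLDL) is assembled in the hepatocyte endoplasmic reticulum, where Mttp loads lipid onto the single Apob molecule of each particle. Apoe and the small C apolipoproteins ride on the surface and move between particles: Apoc2 activates lipoprotein lipase, Apoc3 and Apoc1 slow the clearance of particles, and Apoe is the ligand that remnant receptors bind. Apoa1 and Apoa2 are the main proteins of high density lipoprotein (HDL), Apoa4 is a lipid-carrying protein of triglyceride-rich particles, and Apoa5 promotes lipolysis in plasma.

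The genes lie at 5 places in the genome (GRCm38, coordinates as deposited). On chromosome 9, Apoa1 (46228580 to 46230466), Apoc3 (46232933 to 46235636, minus strand), Apoa4 (46240696 to 46243459) and Apoa5 (46268633 to 46271919) stood within 43.3 kb. On chromosome 7, all on the minus strand, Apoc2 (19671579 to 19681423), Apoc1 (19689484 to 19692658) and Apoe (19696109 to 19699166) stood within 27.6 kb. Apoa2 lies on chromosome 1 (171225054 to 171226379), Mttp on chromosome 3 (138089855 to 138143388, minus strand) and Apob on chromosome 12 (7977648 to 8016835). In the deposited gene models, 632 of the 1815 exon bases of Apoa4 (34.8%) also belong to Gm10680 on the opposite strand, which held 0 to 3 counts per library. The Apoc2 model shares 112 of its 932 exon bases (12.0%) with Apoc4. Apoc2 and Apoc4 lie on the same strand, so reads within the shared bases counted for neither gene. For Apoa4 this held only if strand was not used in counting, which is not stated. Levels per length of Apoc2 and Apoa4 may therefore be too low.

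Promoter sequences were read for the 2 pairs of genes that the results below turn on: Apoa4 with Apoc2, and Apoa2 with Mttp. RefSeq (GRCm38.p6) held promoters for 8 of the 10 members, all but Apoc1 and Apoc3. Shown is the stretch of the 250 bases before the RefSeq start that lies outside deposited exons of protein-coding genes, 5′ to 3′ on the gene's strand. The stretches are chr9:46240594-46240695 (plus) for Apoa4, chr7:19677942-19678093 (minus) for Apoc2, chr1:171224804-171225053 (plus) for Apoa2 and chr3:138143419-138143447 (minus) for Mttp. The Mttp stretch is short because the exon of a divergent neighbour begins there. RefSeq and deposited starts are the same base for Apoa2 and lie 30 bases apart for Mttp. The RefSeq start lies 148 bases inside the deposited gene for Apoa4 and 3482 bases inside it for Apoc2, so the Apoc2 stretch is within the deposited gene. Capitals mark matches, on either strand, to 5 short motifs. The nuclear receptor half-site was spelled AGGTCA and the HNF4 core CAAAGT. The half-site of the cyclic AMP response element was spelled TGACG. The TATA box was searched as TATAAA and the E-box as CACGTG.
Apoa4: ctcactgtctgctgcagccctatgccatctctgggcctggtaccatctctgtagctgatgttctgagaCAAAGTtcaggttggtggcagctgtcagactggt
Apoc2: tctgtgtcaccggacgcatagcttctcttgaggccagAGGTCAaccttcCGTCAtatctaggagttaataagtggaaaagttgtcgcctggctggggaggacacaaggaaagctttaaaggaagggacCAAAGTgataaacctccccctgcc
Apoa2: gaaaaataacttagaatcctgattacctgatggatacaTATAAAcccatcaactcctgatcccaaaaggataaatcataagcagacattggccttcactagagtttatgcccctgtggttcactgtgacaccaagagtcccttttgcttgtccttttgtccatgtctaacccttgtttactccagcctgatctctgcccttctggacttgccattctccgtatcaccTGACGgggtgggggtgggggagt
Mttp: aCGTCAtcggactgcgctaactccaaacc

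CAAAGT stood in both Apoa4 and Apoc2, 182 and 24 bases before the RefSeq start, and it is found in 12.6% of all 32851 promoter windows of 250 bases. The TGACG half-site stood 28 bases before the start in Mttp and 23 bases before it in Apoa2. It also stood 103 bases before it in Apoc2, and 17.8% of all windows hold it. The other shares were 14% for the nuclear receptor half-site, 12.4% for the TATA box and 6.02% for the E-box, which among the 8 members with a promoter stood only in Apoa5. No 2 matches overlapped in the printed stretches. A match is a run of letters, not a measured binding site.

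Levels were compared between genes per length, as TMM-scaled CPM per kb of exon. Apoc1, Apoa2 and Apoe stood at the top of the order in every group on WD. In WD WT EV they reached 11138 ± 1062, 10908 ± 1557 and 10669 ± 1698 CPM per kb (SD, n = 6), and the libraries of these neighbours in the order overlapped. Apoa1 followed at 5210 ± 915 CPM per kb (SD, n = 6), below every library of Apoe. Apoc3 stood at 1366 ± 110 and Apob, the longest of the transcripts with 13934 exon bases, at 780.5 ± 89.2 CPM per kb (SD, n = 6). Apoa4 (681 ± 488), Apoc2 (474 ± 132) and Apoa5 (383 ± 36.3) came next, each overlapping its neighbour. Mttp, an enzyme-like transfer protein and not a particle component, was the lowest on WD at 86.0 ± 8.68 CPM per kb (SD, n = 6). In chow livers the lowest place belonged to Apoa4, at 22.5 ± 4.86 CPM per kb (SD, n = 3).

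**Figure D1:**
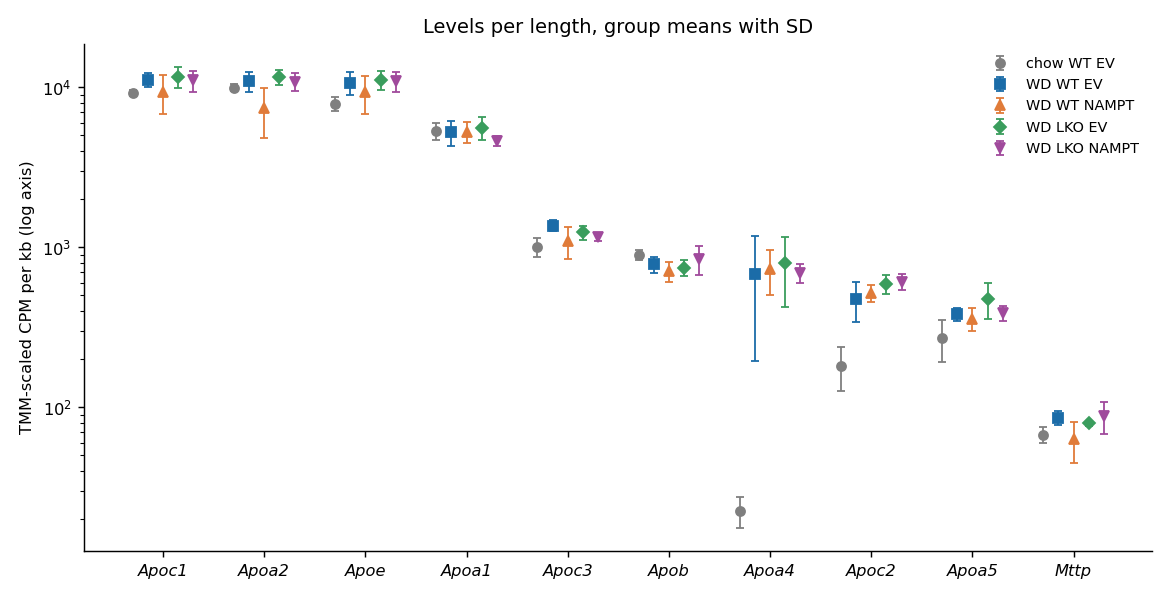
Level of each gene per kb of exon (TMM-scaled CPM per kb, log axis) in the 5 groups. Points are group means and bars SD over 3 to 6 livers. Apoa4 in chow WT EV stands at 22.5, against 681 or more in each group on Western diet.

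The first comparison asked what WD did to these genes in WT EV liver. Apoa4 rose 27-fold and Apoc2 2.87-fold. Apoa5, Apoc3 and Apoe rose by a smaller amount, from 1.32-fold to 1.57-fold. Of the 10 members, 5 were called higher and 0 lower, where 10.1% of the 14065 genes tested were called higher and 22% were called in either direction (limma, adjusted p of 0.05 or less over all genes). With library size alone as scaling, 32.6% of all called genes were higher, against 45.6% here, and besides the 5 Apoc1 was called higher (0.25, adjusted p = 0.0473) and Apob lower (-0.29 on the log2 scale, adjusted p = 0.0309). The median log2 fold change was 0.35 over the members and -0.00 (-0.0047) over all genes. Every WD liver stood above every chow liver for 4 members, Apoa4, Apoc2, Apoc3 and Apoe. Of all genes, 7.66% stood apart in that direction and 16.1% in either.

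Among the genes of the particle core, Apob was at 12919, 13052 and 11487 CPM in the 3 chow livers. On WD its lowest, median and highest values were 9024, 11192 and 12236 CPM (n = 6), so the groups overlapped and 4 of the 6 WD livers lay below the lowest chow liver. The difference, -0.24 ± 0.11 on the log2 scale (SE), was not called, with an adjusted p of 0.131. Mttp was at 307, 326 and 259.8 CPM on chow and at 316, 376 and 425 CPM (lowest, median and highest) on WD. Its log2 fold change was 0.29 ± 0.12 (SE), with an adjusted p of 0.0843. The point estimates of both genes thus had opposite signs, and neither passed the threshold. Within a library, the ratio of Mttp to Apob counts ran from 0.0226 to 0.0250 on chow and from 0.0267 to 0.0414 in WD WT EV. These ranges did not overlap, and of all single genes 16.1% stood apart between these groups in either direction. In WD WT NAMPT the ratio ran from 0.0177 to 0.0374, across the chow range.

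Apoe, the most abundant member by counts, stood at 13890, 16732 and 16317 CPM in chow livers. On WD it ran from 17131 over a median of 20350 to 26043 CPM, every liver above every chow liver. The rise was 0.40 ± 0.14 on the log2 scale (SE), or 1.32-fold, with an adjusted p of 0.0456, close to the threshold. It was not called by 8 of the 13 other ways of fitting, edgeR's quasi-likelihood test and DESeq2 included. The call was also lost in 5 of the 9 fits that left out 1 library (chow replicate 1 or 2, or WD WT EV replicate 1, 4 or 7), with an adjusted p of up to 0.369.

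Apoc2 is the cofactor of lipoprotein lipase. In chow livers it stood at 137, 142 and 229 CPM, and on WD its lowest, median and highest values were 309, 389 and 628 CPM. All 6 WD livers lay above all 3 chow livers. The rise was 1.52 ± 0.14 on the log2 scale (SE), with an adjusted p of 4.35e-08.

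Apoc3, which opposes lipolysis and clearance, also rose, from 1057, 1127 and 868 CPM on chow to 1229, 1379 and 1564 CPM (lowest, median and highest) on WD. The groups did not overlap, and the log2 fold change was 0.40 ± 0.10 (SE) with an adjusted p of 0.00825. Apoc1 was at 4713, 4984 and 5115 CPM on chow and at 4995, 6105 and 6497 CPM on WD. These groups overlapped in 1 liver, and the difference of 0.29 ± 0.13 on the log2 scale (SE) was not called (adjusted p = 0.0932). Called in the same direction, then, were an activator and an inhibitor of lipolysis.

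The change in Apoa4 was the largest of the 10. Chow livers held 41.2, 31.7 and 49.3 CPM. WD WT EV livers held 462, 740, 754, 776, 2040 and 2647 CPM, so every one stood far above every chow liver, and 2 of the 6 stood well above the other 4. Fitted over all libraries the log2 difference was 4.76 ± 0.30 (SE), a 27-fold rise with a 95% interval from 17.6-fold to 41.5-fold, and the adjusted p was 6.52e-11.

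Apoa5 was at 522, 621 and 902 CPM on chow and at 844, 978 and 1068 CPM (lowest, median and highest) on WD. A single chow liver overlapped the WD range, and the log2 fold change was 0.65 ± 0.15 (SE) with an adjusted p of 0.00245. It lost the call without chow replicate 1 or 2, with an adjusted p of up to 0.297.

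The HDL proteins were not called. Apoa1 was at 5696, 6784 and 7309 CPM on chow and at 5356, 6352 and 8520 CPM (lowest, median and highest) on WD, with a log2 fold change of -0.02 ± 0.13 (SE) and an adjusted p of 0.91. Apoa2 was at 5097, 5650 and 5282 CPM on chow and at 4373, 6065 and 6674 CPM on WD, with 0.14 ± 0.15 (SE) and an adjusted p of 0.534. The 95% interval of the Apoa1 difference ran from -0.28 to 0.24 on the log2 scale, so a rise of more than 1.18-fold lay outside it.

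In both gene clusters neighbours changed by very different amounts. In the chromosome 9 cluster, log2 fold changes in order of position were -0.02 for Apoa1, 0.40 for Apoc3, 4.76 for Apoa4 and 0.65 for Apoa5. On chromosome 7 they were 1.52 for Apoc2, 0.13 ± 0.12 (SE, adjusted p = 0.472) for Apoc4, 0.29 for Apoc1 and 0.40 for Apoe. The 95% intervals of Apoa4 and of Apoc2 did not reach those of any neighbour in their cluster.

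**Figure D2:**
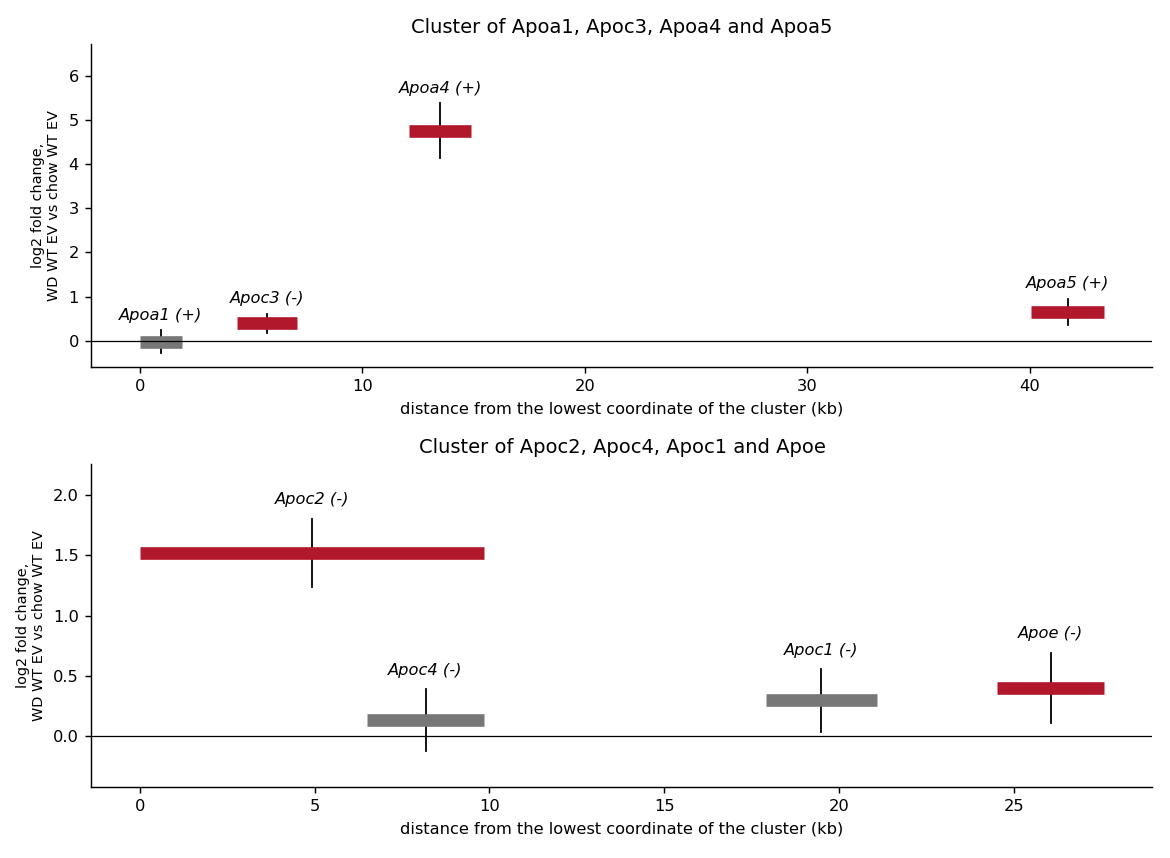
Log2 fold change of WD WT EV against chow WT EV for the genes of both clusters, placed by distance from the lowest coordinate of the cluster (kb). Each horizontal bar spans the deposited gene, the vertical line is the 95% interval, red bars were called and grey bars were not, and the sign gives the strand. Apoa4 stands at 4.76 and Apoc2 at 1.52, above their neighbours.

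Several values moved with diet beside these genes. A score of clock genes was between 2.73 and 4.07 in the chow livers and between -2.15 and 1.28 in all livers on WD. With this score as a covariate, 2 of the 5 calls were kept, Apoa4 and Apoc2. The hour of collection is not in the labels and its part in the result was not tested. Of the 6 hepatocyte markers, 3 were called lower on WD and 0 higher, and their sum ran from 59911 to 72833 CPM on chow and from 47306 to 63627 CPM in WD WT EV. Recruited macrophage markers (6 of 6 found, 1 called higher, 0 lower) summed to between 28.9 and 35.1 CPM on chow and to between 31.1 and 125 CPM in WD WT EV. Kupffer cell markers (6 of 6 found, 1 called higher, 0 lower) summed to between 211 and 262 CPM on chow and to between 272 and 388 CPM on WD. Of 6 stellate cell markers 2 were called higher and 0 lower, and of 5 sinusoidal endothelial markers 1 was called higher and 1 lower. Only the Kupffer cell sums stood apart between the groups, and the part of these cells in the result was not tested. Without sample weights, or with edgeR's quasi-likelihood or exact test, 2 members were called, again Apoa4 and Apoc2. Exact two-sided permutation tests of single members cannot go below p = 0.0238 with 3 against 6 livers, and none of the 50 run over all comparisons passed after Benjamini-Hochberg adjustment, where 0.189 was the smallest value.

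The other genes of the pathway were counted by list. For VLDL assembly and export, 4 of 11 genes were called higher on WD and 0 lower. They were P4hb (the small subunit that holds Mttp in the endoplasmic reticulum, log2 fold change 0.26), Cideb (which helps to load lipid onto VLDL, 0.49), Surf4 (a cargo receptor, 0.27) and Sec23a (a COPII coat subunit, 0.34). The list's median was 0.12. Of 12 genes of lipolysis and remnant uptake, 2 were called higher and 2 lower. Lipg, endothelial lipase, rose by 1.04 and Gpihbp1, which anchors lipoprotein lipase, by 0.56. Sort1, a sorting receptor, fell by 1.17 and Sdc1, a remnant receptor, fell by 0.46.

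In the list of HDL formation and remodelling, 3 of 7 genes were called higher and 1 lower. The cholesterol exporter Abcg1 rose by 1.10, the phospholipid transfer protein Pltp by 0.82 and the HDL receptor Scarb1 by 0.42, whereas Apom, an HDL apolipoprotein, fell by 1.05 (from 185 to 88.1 CPM). None of the 5 tested other apolipoproteins and none of the 3 genes of Apob mRNA editing were called by limma, and 0 of them had an unadjusted p under 0.05. Of 14 transcription factors, 4 were called higher and 1 lower. Srebf1, a lipogenic factor, rose by 1.63, the clock repressor Nr1d1 by 1.20, the fatty acid receptor Ppara by 1.04 and Nr0b2 by 0.67, while Nr5a2 fell by 0.31. Values are log2 fold changes from the fit over all genes, each with an adjusted p of 0.0481 or less. Of these 17 list calls, 8 were kept without chow replicate 1 or without chow replicate 2. Limma without weights and the fit with the clock-gene score as covariate also kept 8 each. Of the 4 VLDL calls, only Surf4 was kept without chow replicate 1, without chow replicate 2 or with the clock-gene score. Ppara, Nr0b2 and Nr1d1, itself a gene of that score, lost their calls with it. Sort1, Gpihbp1, Apom and Srebf1 were called in every one of the 22 alternatives.

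The second comparison asked what the NAMPT vector did in WT liver on WD. Apoa2, Mttp and Apoc3 were lower with NAMPT, by 32.7%, 27% and 20.4%. These 3 of 10 members were called lower and 0 higher, where 5.77% of all genes tested were called lower and 13.4% in either direction. With library size alone as scaling, 88.1% of all called genes were higher, against 57.1% here, and Apoa2 and Mttp stayed called lower. The median log2 fold change was -0.14 over the members and 0.00 (0.0041) over all genes. For no member did the groups stand apart, which 0.96% of all genes did in either direction.

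Apoa2, the second protein of HDL, ran from 4373 over a median of 6065 to 6674 CPM in WT EV. In WT NAMPT its lowest, median and highest values were 2031, 4062 and 5672 CPM. Of the 6 NAMPT livers, 4 lay below the lowest EV liver and 2 within the EV range. On the log2 scale it fell by 0.57 ± 0.14 (SE), with an adjusted p of 0.014 and an exact permutation p of 0.0195 before adjustment. Apoa1, its partner on HDL, did not follow: it was at 5356, 6352 and 8520 CPM in EV and at 5112, 6535 and 7949 CPM in NAMPT (lowest, median and highest), a difference of 0.13 ± 0.12 on the log2 scale (SE) with an adjusted p of 0.515. The ratio of Apoa2 to Apoa1 counts within a library, which no scaling changes, was 0.927 ± 0.174 (SD, n = 6) in EV and 0.612 ± 0.209 (SD, n = 6) in NAMPT.

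Mttp, the lipid loader of VLDL, was at 316, 376 and 425 CPM (lowest, median and highest) in EV. With NAMPT it was at 180.3, 273 and 371 CPM. Again 4 of 6 NAMPT livers were below every EV liver and 2 were within the EV range. Its fall was -0.45 ± 0.11 on the log2 scale (SE), with an adjusted p of 0.0152 and an exact permutation p of 0.0195 before adjustment. Apob, onto which Mttp loads lipid, was at 8038, 9653 and 11561 CPM (lowest, median and highest) in NAMPT. It was not called at -0.18 ± 0.11 on the log2 scale (SE), with an adjusted p of 0.266.

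Apoc3 went from 1229, 1379 and 1564 CPM (lowest, median and highest) in EV to 763, 1121 and 1449.5 CPM in NAMPT. The groups overlapped in the same way, with 4 of 6 NAMPT livers below the EV range, and the log2 fold change was -0.33 ± 0.10 (SE) with an adjusted p of 0.034. This call was lost in 13 of 15 other ways of fitting, DESeq2 and both edgeR tests included, and in 7 of the 12 fits that left out 1 library, with an adjusted p of up to 0.597. Apoc1 was at 3160, 4949 and 7352 CPM in NAMPT and at 4995, 6105 and 6497 CPM in EV. Its highest NAMPT liver lay above all EV livers, and the difference, -0.31 ± 0.12 on the log2 scale (SE), was not called at an adjusted p of 0.0888.

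The remaining members were not called. Apoe was at 11629, 20162 and 24044 CPM (lowest, median and highest) in NAMPT, -0.09 ± 0.14 against EV on the log2 scale (SE) with an adjusted p of 0.699. Apoa5 was at 675, 914 and 1090 CPM, with -0.07 ± 0.14 (SE, adjusted p = 0.797). For the genes that had risen most with diet, the intervals stayed wide or spanned 0. Apoa4 was at 617, 1406 and 1729 CPM, with 0.46 ± 0.33 (SE, adjusted p = 0.367) and a 95% interval from -0.23 to 1.14. Apoc2 was at 416, 466 and 569 CPM, with 0.14 ± 0.14 (SE, adjusted p = 0.545).

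The lowest values lay in the same livers. WT NAMPT replicates 1 and 2, which also had the highest TMM factors of the 25 libraries (1.12 and 1.29), held the 2 lowest values of all libraries for Apoa2 (2874 and 2031 CPM), Mttp (204 and 180.3 CPM) and Apoe (11629 and 13376 CPM). For Apoc3, replicate 2 was the lowest of all (763 CPM) and replicate 1 (913 CPM) lay above 1 chow liver. With library size alone as scaling, replicates 1 and 2 stayed the lowest for Apoa2 and Mttp. Apoe in replicate 2 (17274 CPM) then lay above every chow liver. Apoc3 in replicate 2 (985 CPM) then lay above 1 chow liver (847 CPM), so these ranks depended on the TMM factors. Without WT NAMPT replicates 1 and 2, as an alternative chosen after the data were seen, 0 members were called. The log2 fold change was then -0.39 for Apoa2 (adjusted p = 0.0983), -0.31 for Mttp (adjusted p = 0.119) and -0.22 for Apoc3 (adjusted p = 0.2). Without WT EV replicate 2 or without WT NAMPT replicate 3, 0 members were called as well. Apoa2 and Mttp were each called in 10 of the 12 fits that left out 1 library, and with DESeq2. Without the 3 libraries of lowest weight, also an alternative chosen after the data were seen, 3 members were called. The edgeR quasi-likelihood test, limma without weights, and the fit on only these groups each called 0 members, and the edgeR exact test called 1, Apoa2.

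Markers of other cells moved with the same group. Kupffer cell markers (3 of 6 called higher, 0 lower) summed to between 272 and 388 CPM in WT EV and to between 249 and 698 CPM in WT NAMPT. Recruited macrophage markers (3 of 6 called higher, 0 lower) summed to between 31.1 and 125 CPM and to between 33.1 and 296 CPM, and replicate 2 was the highest. Neutrophil markers (1 of 3 tested called higher, 0 lower) summed to at most 5.61 CPM in WT EV and to at most 15.5 CPM in WT NAMPT, with Ly6g at 0 in 18 libraries and Mmp8 at 0 in 11. Stellate cell markers (3 of 6 called higher, 0 lower) ran from 285 to 697 CPM in WT NAMPT and from 278 to 462 CPM in WT EV. Hepatocyte markers (0 of 6 called by limma, 3 with an unadjusted p under 0.05) summed to between 41853 and 58955 CPM in WT NAMPT and to between 47306 and 63627 CPM in WT EV. The part of these cells in the lower Apoa2, Mttp and Apoc3 was not tested.

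**Figure D3:**
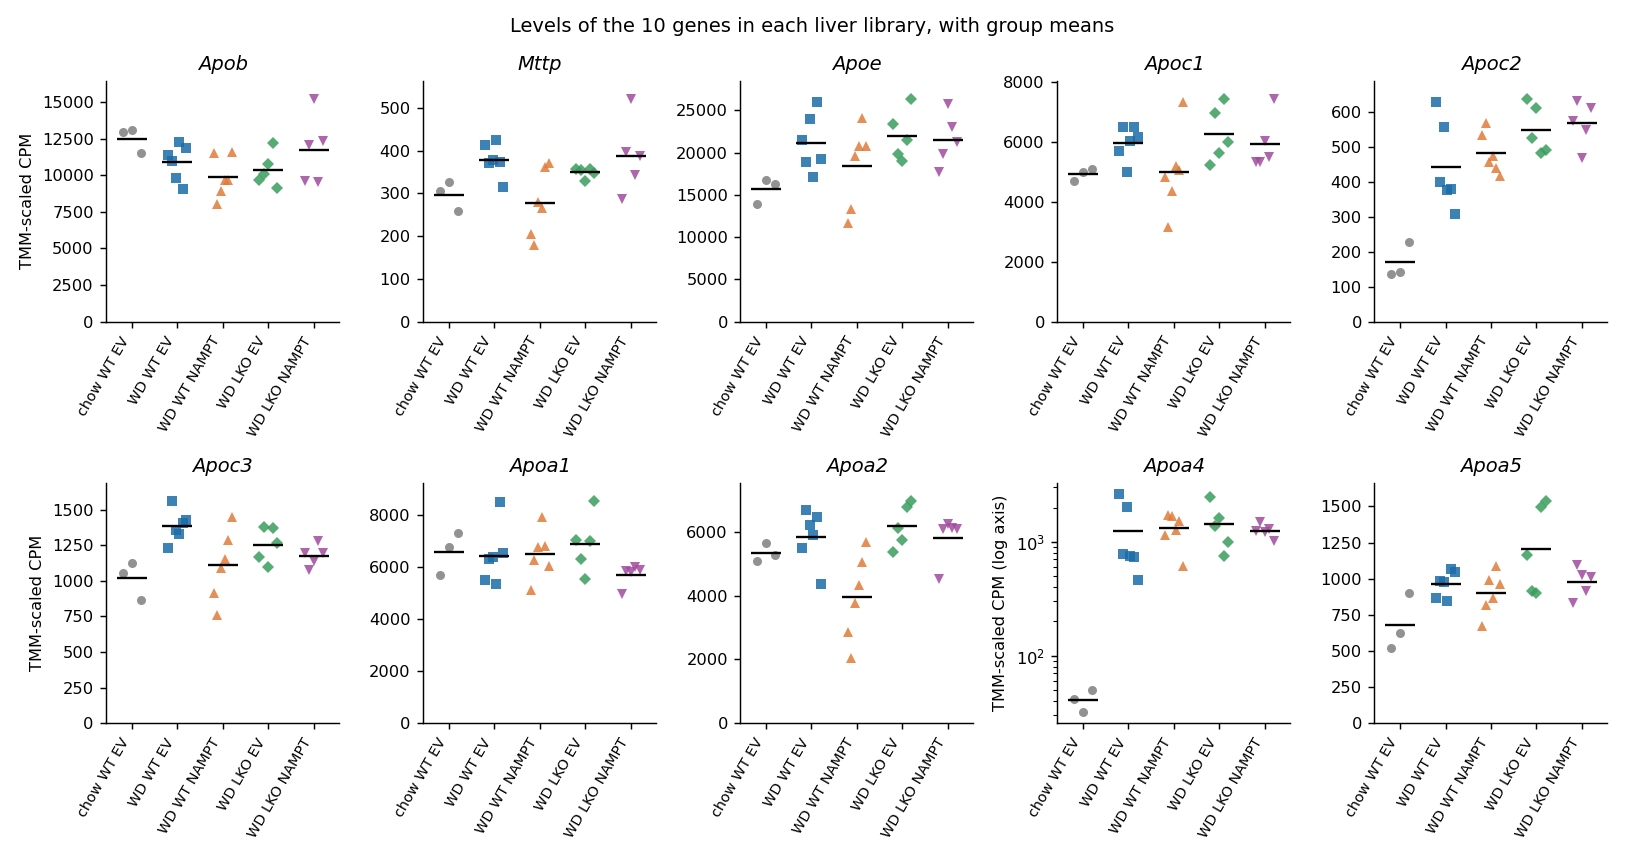
TMM-scaled CPM of each gene in all 25 livers by group. Each point is a liver, horizontal lines are group means, the axes start at 0 except for Apoa4, which has a log axis. In WD WT NAMPT the Apoa2 and Mttp points spread from 2031 to 5672 and from 180.3 to 371 CPM, with 4 of 6 livers below every WD WT EV liver.

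Among the other genes of VLDL assembly and export, 3 of 11 were called lower with NAMPT in WT and 0 higher. Sar1b, the small GTPase of the COPII coat, fell by 0.57 on the log2 scale (from 170 to 123 CPM), Sec24a, a cargo-binding COPII subunit, fell by 0.35 and Cideb fell by 0.33. The list's median was -0.14. Of 12 genes of lipolysis and remnant uptake only Lpl (lipoprotein lipase) was called, and it rose by 1.44, from 40.4 ± 18.3 to 108 ± 51.9 CPM (SD, n = 6 each). In the HDL list Abcg1 rose by 0.79 and Pon1, an HDL-bound esterase, fell by 0.76. Clu, clusterin, was the only one of 5 other apolipoproteins called, and it rose by 0.37. In Apob mRNA editing the deaminase Apobec1 rose by 0.45 and its RNA-binding partner A1cf fell by 0.45. Of 14 transcription factors only Mlxipl, the sugar-sensing ChREBP, was called, and it fell by 0.40. All of these had an adjusted p of 0.0471 or less. How many of these 10 list calls were kept depended on the library left out: 0 were kept without WT NAMPT replicate 3 or without WT NAMPT replicates 1 and 2, 2 without WT EV replicate 2 and 4 without WT EV replicate 6. Either edgeR test kept 2, limma without weights and the fit with 2 surrogate variables kept 0, and none of the 10 was called in every alternative. Lpl and Abcg1 were each kept in 11 of the 12 fits that left out 1 library, Sar1b in 9, Cideb in 7, Sec24a in 6 and Mlxipl in 4.

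The third comparison was the NAMPT vector in LKO liver. None of the 10 members was called and none stood apart between the groups, where limma called 1 of all genes tested (0.00711%), 1.15% stood apart and 1355 had an unadjusted p under 0.05. None of the members had an unadjusted p under 0.05 either, and DESeq2 and both edgeR tests called 0. Apoa2 was at 5366, 6116, 5738, 6792 and 6986 CPM in the 5 LKO EV livers and at 4535, 6094, 6258, 6136 and 6079 CPM with NAMPT. The NAMPT range overlapped the EV range except for 1 liver below it, and the log2 fold change was -0.06 ± 0.15 (SE, 95% interval from -0.36 to 0.25). Mttp was at 358, 356, 329.6, 357 and 349 CPM in LKO EV, the tightest of all groups, and at 286, 396, 522, 344 and 387 CPM in LKO NAMPT. Its log2 fold change was 0.11 ± 0.12 (SE, 95% interval from -0.13 to 0.36). The largest difference was that of Apoa1, -0.21 ± 0.13 on the log2 scale (SE, 95% interval from -0.47 to 0.05), with an unadjusted p of 0.107 in limma. Of the 52 other genes of the 6 pathway lists, limma called 0 and 2 had an unadjusted p under 0.05.

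The NAMPT effect was then compared between genotypes directly, as the interaction (LKO minus WT). No member was called and 1 of all genes was (0.00711%), while 3 members and 2986 of the 14065 genes tested had an unadjusted p under 0.05. For Mttp the interaction was 0.57 ± 0.17 on the log2 scale (SE, 95% interval from 0.23 to 0.91), with an unadjusted p of 0.00215 and an adjusted p of 0.0849. For Apoa2 it was 0.52 ± 0.20 (SE, adjusted p = 0.153) and for Apob 0.34 ± 0.16 (SE, adjusted p = 0.212). A difference of the NAMPT effect between WT and LKO was therefore not established for any member. Mttp was called, with an adjusted p down to 0.0357, in the fits without WT NAMPT replicate 5, WT NAMPT replicate 6 or LKO NAMPT replicate 1. Without WT NAMPT replicates 1 and 2 its interaction was 0.41 (adjusted p = 0.223).

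The fourth comparison set LKO NAMPT against WT NAMPT. Apoa2 was 1.48-fold and Mttp 1.37-fold higher in LKO NAMPT. These 2 of 10 members were called higher and 0 lower, where 4.18% of all genes were called higher and 7.96% in either direction. This comparison shares its WT NAMPT livers with the second one, so the low livers described above enter both. Without WT NAMPT replicates 1 and 2, Apoa2 differed by 0.37 (adjusted p = 0.113) and Mttp by 0.30 (adjusted p = 0.152) on the log2 scale. Apoa2 was higher by 0.57 ± 0.15 on the log2 scale (SE), with an adjusted p of 0.0275, and Mttp by 0.45 ± 0.12 (SE), with an adjusted p of 0.0302. With library size alone as scaling, 24.3% of all called genes were higher, against 52.5% here, and Apoa2 stayed called. No member stood apart, which 1.39% of all genes did. Kupffer cell markers (0 of 6 called by limma, 4 with an unadjusted p under 0.05) summed to between 262 and 548 CPM in LKO NAMPT and to between 249 and 698 CPM in WT NAMPT. Recruited macrophage markers (0 of 6 called, 4 with an unadjusted p under 0.05) summed to between 52.8 and 174 CPM and to between 33.1 and 296 CPM. Stellate cell markers (0 of 6 called, 3 with an unadjusted p under 0.05) and neutrophil markers (0 of 3 tested called, 2 with an unadjusted p under 0.05) overlapped as well, and 1 of 5 cholangiocyte markers was called lower. Mitochondrial genes took up to 12.3% of counts in LKO NAMPT and up to 8.57% in WT NAMPT. The part of these values in the Apoa2 and Mttp difference was not tested. Ranges overlapped for both genes, since WT NAMPT reached up to 5672 CPM for Apoa2 and 371 CPM for Mttp.

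Of the others, Apob (0.26 ± 0.12, adjusted p = 0.137), Apoc1 (0.27 ± 0.13, adjusted p = 0.166) and Apoc2 (0.32 ± 0.15, adjusted p = 0.17) had log2 fold changes with an unadjusted p under 0.05 and were not called. Apoc3, called lower with NAMPT in WT, differed by 0.06 ± 0.11 (SE, adjusted p = 0.763). Both edgeR tests, DESeq2, limma without weights, limma without the filter, the fit on only these groups and the fit with 2 surrogate variables called 0 members, as did the fits without WT NAMPT replicate 1, 2 or 3 or LKO NAMPT replicate 2, 3 or 5. In the VLDL list, 4 of 11 genes were called higher in LKO NAMPT and 0 lower: Sar1b (0.59), Sec24a (0.54), Mia2 (a cargo receptor for large particles, 0.35) and Sec23a (0.29). A1cf (0.56) and Pon1 (0.69) were also higher, while Clu fell by 0.37 and Sort1 fell by 0.99. None of the 14 transcription factors was called by limma, and 2 had an unadjusted p under 0.05. Of these 8 list calls, 0 were kept without LKO NAMPT replicate 2 or 5, and 1 was kept, Sort1, without WT NAMPT replicate 3 or without WT NAMPT replicates 1 and 2. Among the VLDL genes Sec24a was kept in 8 of the 11 fits that left out 1 library, Sar1b and Mia2 in 5 each and Sec23a in 4.

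The last comparison set LKO EV against WT EV on WD. No member was called by limma, where 1 of all genes tested (0.00711%) was called, 0.59% stood apart between the groups and 891 had an unadjusted p under 0.05. Only Apoc2 had an unadjusted p under 0.05. It was at 638, 526, 611, 482 and 491 CPM in LKO EV and at 309, 389 and 628 CPM (lowest, median and highest) in WT EV, 0.35 ± 0.14 higher on the log2 scale (SE) with an adjusted p of 0.661. The exact permutation p was 0.0996, and the LKO values lay within or just above the WT range. Apoa5 was at 1161, 913, 899, 1495 and 1540 CPM, the widest spread of this gene on WD, with 0.23 ± 0.14 (SE, adjusted p = 0.879). DESeq2 and both edgeR tests called 0 members as well. Of the 52 list genes, limma called 0 and 5 had an unadjusted p under 0.05.

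**Figure D4:**
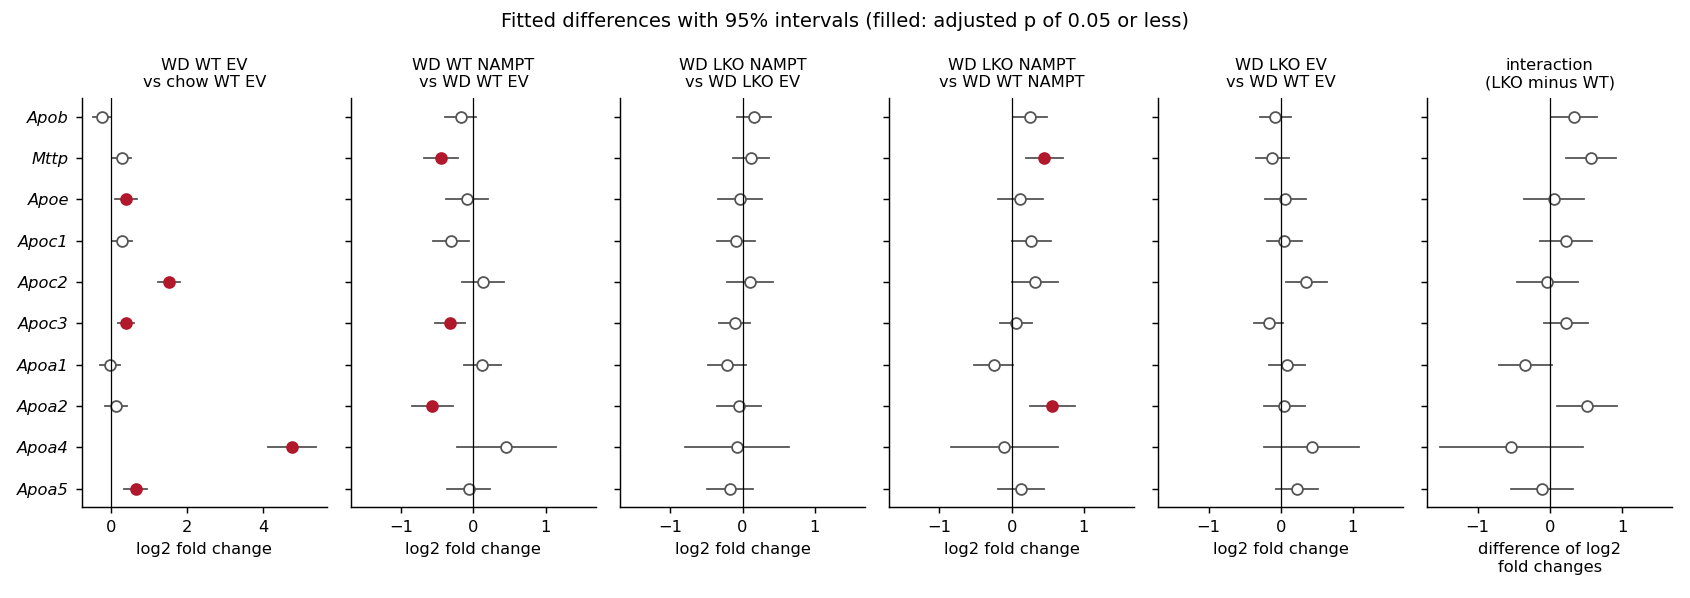
Fitted log2 fold change of each gene in the 5 comparisons and the interaction, with 95% intervals; filled red points had an adjusted p of 0.05 or less. The first panel has a wider axis because of Apoa4, at 4.76. Calls stand in the diet comparison (5), NAMPT in WT (3) and LKO against WT under NAMPT (2).

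Across the 5 groups the order of the group means had few steps that livers of neighbouring groups did not blur. Apoa4 and Apoc2 in chow lay below every other group without overlap. For Mttp, LKO EV stood apart from chow, and WT NAMPT (277 ± 78.5 CPM, SD, n = 6) overlapped chow (297 ± 33.9 CPM, SD, n = 3). At each other step of the order for the 10 genes, neighbours overlapped.

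How the genes varied between livers of 1 group also differed. The coefficient of variation of Apoa4 was 71.7% in WT EV, 46.6% in LKO EV, 31.3% in WT NAMPT and 13.4% in LKO NAMPT, while Mttp in LKO EV had 3.37%. Apoa4 and Apoc2 deviated together: the correlation of their deviations from group means on the log2 scale was 0.79 over the 25 libraries. In WT EV the 2 livers with the highest Apoa4, 2647 and 2040 CPM, also had the highest Apoc2, 628 and 557 CPM. Apoa2 and Mttp deviated together with 0.82, Apoa2 and Apoc3 with 0.78, and Apoa1 and Apoa5 with 0.72. Apoa4 and Apoc1 deviated in opposite directions, with -0.63.

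Of the 45 pairs, 15 had a correlation above 0.5 and 3 below -0.5, with a median of 0.21. Apoa4 and its neighbour Apoc3 had -0.51, Apoc2 and Apoc3 had -0.61, and Apoa4 and Apoc2, on different chromosomes, had 0.79. These values describe deviations from group means in 25 libraries, and the genes of a library share its scaling factor. With group means left in, Apoa4 and Apoc3 had 0.18, and Apoc2 and Apoc3 had 0.07.

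**Figure D5:**
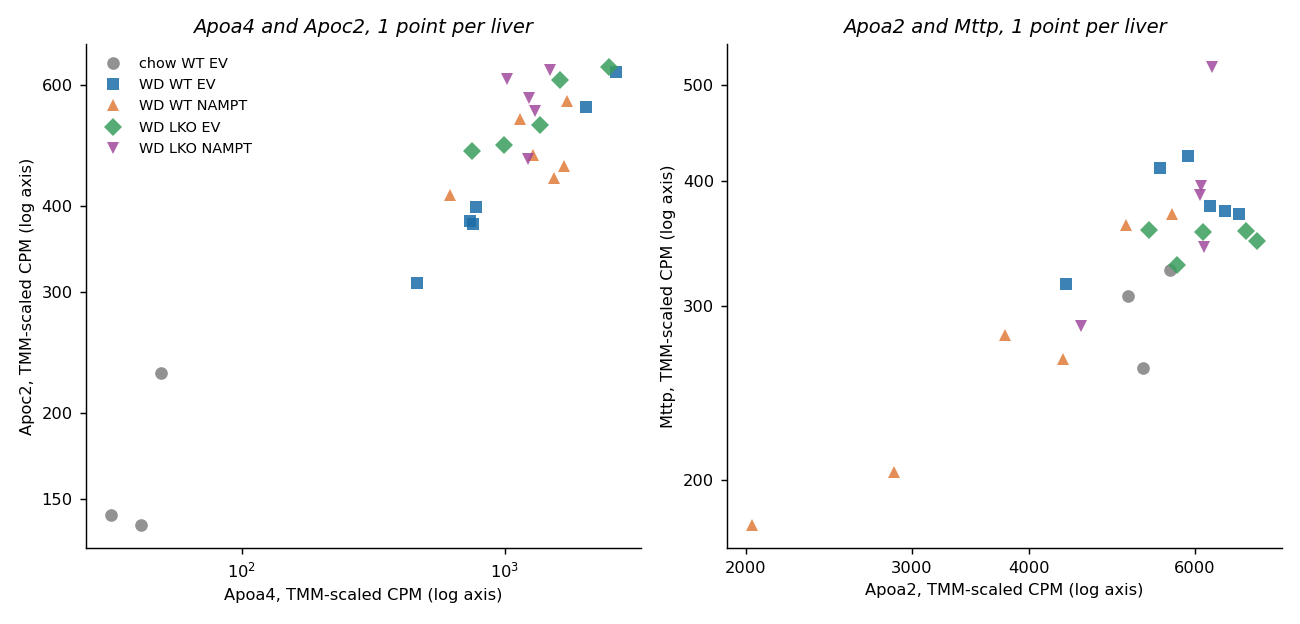
Levels in each of 25 livers (TMM-scaled CPM, log axes): Apoa4 against Apoc2 on the left and Apoa2 against Mttp on the right, with groups by colour and marker. The 3 chow livers sit apart at the lower left for Apoa4 and Apoc2, and WD WT NAMPT livers extend to the lowest values, 2031 and 180.3 CPM, for Apoa2 and Mttp.

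The genes whose pattern over the 25 libraries was most like each member were taken by Pearson correlation of log2 values among 11828 protein-coding genes. For Apoa4 they were Cntnap1 (0.97), Capns1 (0.96) and 2010003K11Rik (0.95), and the same 3 genes led for Apoc2 (0.94 to 0.95). For Apoa2 they were Ech1, Nipsnap1 and Gcdh (0.94 each), and for Mttp Cul4a, Gfm1 and Acad11 (0.94 to 0.95). Apob was most like Usp9x, Ppp4r3b and Wapl (0.94 to 0.95), and Apoe was most like Eif4g1, Dhrs4 and Iscu (0.87 to 0.90). For Apoc1 the genes were Adk, Prdx6 and Derl2 (0.88 to 0.90) and for Apoc3 Pygl, Lmf1 and Tmie (0.88 each). Apoa5 led to Lrp3, Tpcn1 and Brap (0.80 to 0.84), and Apoa1, the member with the least alike partners, to Proc, Egln2 and Angptl6 (0.78 to 0.80). These correlations include the differences between groups and are a description.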

How the data were processed

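Per the labels, the authors aligned single 50-base reads of poly-A RNA to GRCm38 with STAR (2.5.1a in the submitters' processing notes) and counted unique reads per gene with featureCounts (1.4.6-p5 in the same notes, where the study's methods name other versions). Whether strand was used in counting is not given in the sources used here. The deposited raw counts were used here. The CPM and RPKM values that the authors deposited recompute from those counts and gene lengths, and were not used further. Total counts of 20166175 to 32937326 per library gave every member at least 713 counts. The vector insert is named NAMPT in titles and SIRT1 in a protocol text, and titles were followed.

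Symbols came from GENCODE M21, which lists 40340 of 41388 identifiers. Genes over 1 CPM in at least 2 libraries were kept and 4 ribosomal RNA genes were left out. TMM factors (edgeR 4.0.16) and limma 3.58.1 voomWithQualityWeights in R 4.3.3 were used, steps that the study's methods name. Here 1 mean per group was fitted over all libraries, with Benjamini-Hochberg adjustment over all genes kept. The study's methods do not state the groups of the fit, and its figure legend for these data names the edgeR exact test. CPM in the text are TMM-scaled. Exact permutation tests used log2(CPM + 0.5) over 10 members and 5 comparisons. Mice are separate animals, and libraries of a group were not copies of each other.

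Alternatives were edgeR's quasi-likelihood and exact tests, DESeq2 1.42.0, no weights, other scalings and filters, only the groups compared, a replicate block, 2 surrogate variables (sva 3.50.0), a clock-gene score, leaving out each library and, after seeing the data, leaving out libraries that stand apart. The replicate numbers of the titles are reused for different mice. Of 19 same-numbered pairs, 7 deviated together with a correlation over 0.1 (range -0.38 to 0.42), so the numbers were not taken to pair the samples.

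The members and gene lists were chosen with earlier results of these data known. Of the listed genes, 3 are not reported here and were left out of the list counts. List genes are named where called in the comparison described, and for likeness the 3 protein-coding genes with the highest correlation are named. Marker lists not described in the report gave, in WT NAMPT against WT EV, 1 of 5 sinusoidal endothelial markers higher and 1 lower, 0 of 3 tested T cell markers and 0 of 5 cholangiocyte markers called by limma (1 and 0 at an unadjusted p under 0.05).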

Additional observations from a re-analysis of the deposited data

Results flagged for a closer look

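For each gene, the lowest and highest liver were compared with their group in the 40 sets of 5 or 6 livers, a check that marks about 1 in 20 sets by chance. It marked 2, both the lowest liver of LKO NAMPT, replicate 1. Apoa2 there was 4535 CPM, with 6079 CPM the next higher value, and Apoa1 was 4979 CPM, with 5802 CPM next. These values are TMM-scaled. By library size alone, Apoa2 in replicate 1 was 4817 CPM, with 5542 CPM next. The lowest Apoa1 was then in replicate 3, at 5138 CPM against 5288 CPM in replicate 1. The check was not repeated with this scaling. Replicate 1 had the highest summed Kupffer cell markers of its group, 548 CPM against 370 CPM or less in the others, and a TMM factor of 1.06. The part of these values in the low Apoa1 and Apoa2 was not tested. Without this liver, 2 members were called in LKO NAMPT against WT NAMPT and 0 in LKO NAMPT against LKO EV.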

How the results depend on the processing

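Apoa4 and Apoc2 were called higher on WD against chow in all 22 alternatives. The count of members called there was 5 and went to 2 with either edgeR test, no sample weights or the clock-gene score, to 3 with the replicate block and to 8 with 2 surrogate variables. It ran from 3 (without chow replicate 1 or 2) to 5 when each library was left out in turn. For NAMPT in WT the count was 3 and went to 0 with the quasi-likelihood test, no weights, only the groups compared, 2 surrogate variables or without WT NAMPT replicates 1 and 2, and to 1 with the exact test. It was 2 with the replicate block and ran from 0 to 4 over the fits that left out 1 library. For LKO NAMPT against WT NAMPT the count was 2. It went to 0 with both edgeR tests, DESeq2, no weights, no filter, only the groups compared, 2 surrogate variables or without WT NAMPT replicates 1 and 2. It went to 1 with library size alone, library size without the members, the replicate block or without the 3 libraries of lowest weight, and ran from 0 to 2 when single libraries were left out. In the interaction it ran from 0 to 1. The causes were not tested. No called member value changed its sign. Of the 10 list calls for NAMPT in WT, 1 did so with 2 surrogate variables. Of the 39 member values with an unadjusted p of 0.05 or more, 23 changed sign in some alternative. Scaling by library size alone put the median of all genes at 0.16 for NAMPT in WT, -0.12 for LKO NAMPT against WT NAMPT and -0.15 for the interaction. Of the genes called for diet, 45.6% were higher, against 32.6% with library size alone and 34.3% without the members in it. For NAMPT in WT 57.1% became 67.1% with upper-quartile factors and 88.1% and 88.3% with these library sizes, and for LKO NAMPT against WT NAMPT 52.5% became 32.6%, 24.3% and 25.4%. Counts over all genes ran from 843 to 3842 (3101 as reported) for diet, from 33 to 2846 (1890) for NAMPT in WT, from 0 to 2287 (1120) for LKO NAMPT against WT NAMPT, and from 0 to 6 (1), from 0 to 15 (1) and from 0 to 676 (1) for NAMPT in LKO, LKO EV against WT EV and the interaction. In the exact permutation tests, 0 of 50 passed after adjustment under each scaling and pseudocount, with 10 to 12 under 0.05 before it. Every member had at least 713 counts in every library.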
